A study of Mus musculus with 2148 samples.

Results

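Neuroendocrine lineage genes were examined in single thymic epithelial cells. The set holds 10 of the 48437 genes of the count table and was chosen by name: the transcription factors Neurod1, Insm1 and Rfx6, the secretory granule genes Chga, Scg2 and Pcsk1, the exocytosis genes Snap25, Stxbp5l and Baiap3, and Car8. All 10 symbols were found through their Ensembl identifiers. No measured value entered the choice of the names, but the names were picked with earlier results of these data known. The cells came from thymi of C57BL/6 mice, and each was sequenced by RamDA-seq, which covers whole transcripts of total RNA, those without a poly(A) tail included. After depletion of CD45+ blood cells, EpCAM+ cells were sorted as medullary thymic epithelial cells with high or low surface MHC class II (Ly51-; mTEChi and mTEClo) or as cortical cells (Ly51+; cTEC). The 8 groups were adult WT mTEChi (620 cells), adult WT mTEClo (360 cells), adult WT cTEC (77 cells), adult Aire-KO mTEChi (340 cells), adult Aire-KO mTEClo (150 cells), and newborn WT mTEChi (170 cells), mTEClo (120 cells) and cTEC (140 cells), about 2000 in all. Cell numbers over 100 are given to the nearest 10, and shares are exact. Adult WT mice were 4 to 8 weeks old and male, except that adult WT mTEChi pool 4 was female. Aire-KO mice lack the transcriptional regulator Aire in every cell and were males of 5 weeks. Newborn mice were 1 day old, and their sex was not recorded.

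Cells of a group with the same age and sex were summed into a mouse pool, which served as the replicate, because mice are not numbered in the labels. Adult WT mTEChi had 4 pools, adult WT mTEClo had 3, and each other group had 1. The cells held 203010 to 1823784 deduplicated reads each, with a median of 692880 reads. A level is given as CPM, the reads of a gene per 1000000 reads on genes in a pool, and a cell was counted as holding a gene at 5 or more reads. The targeted gene followed the labels: Aire stood between 1109.7 and 1844.6 CPM in the adult WT mTEChi pools and at 26.1 CPM in Aire-KO mTEChi, where 48.8% of cells still held reads of the gene, and between 26.1 and 39.5 CPM in the adult WT mTEClo pools against 0.153 CPM in Aire-KO mTEClo. All 5 mature mTEC markers were called higher in adult WT mTEChi than in mTEClo by the test described below. Among them is H2-Aa, an MHC class II gene, so its call is not independent of the sort on MHC class II. Adult WT mTEClo pools differed in makeup: cells holding at least 5 of 10 markers of tuft cells, a chemosensory cell type, made up 5.07%, 74.3% and 57.6% of pools 1, 2 and 3. The mTEClo pools 1, 2 and 3 were 8, 5 and 4 weeks old and shared no experimental batch, so makeup, age and batch cannot be told apart. The 4 adult WT mTEChi pools were 4, 5, 6 and 4 weeks old. A pool can hold cells of several mice, so p-values measure the spread between pools, which includes their ages. The newborn sorts shared the same 5 experimental batches, which the fit over pools does not use. Experimental batches of the newborn and Aire-KO groups held no adult WT cells, and the adult sorts shared no batch, so batch cannot be told apart from age, genotype or adult sort.

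Neuroendocrine cells store peptides and amines in dense-core granules and release them on stimulation. In the gut, airway and pancreas, proneural and zinc-finger transcription factors drive their fate, granins and prohormone convertases build the granule, and SNARE proteins with their regulators fuse it with the membrane. Some medullary thymic epithelial cells take on programs of peripheral cell types, and such cells are called mimetic cells. Aire, which makes mature medullary cells transcribe genes of other tissues, is one of the regulators studied in that setting.

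Promoter sequences are shown for 4 members that are used throughout below: the 3 granule genes, which encode the cargo and a processing enzyme of dense-core granules, and Stxbp5l, a syntaxin-binding gene with the highest median level of the set in the cells described below. RefSeq promoters (GRCm38.p6, 250 bases before and 50 after the start) were at hand for 7 of the 10 members. Capitals mark the cyclic AMP response element TGACGTCA, its core TGACGT or ACGTCA, which also lies within the full element, and the GC box GGGCGG or CCGCCC. Both strands were searched. Each sequence is written 5' to 3' on the gene's own strand.
Chga, chr12:102554691-102554990, + strand: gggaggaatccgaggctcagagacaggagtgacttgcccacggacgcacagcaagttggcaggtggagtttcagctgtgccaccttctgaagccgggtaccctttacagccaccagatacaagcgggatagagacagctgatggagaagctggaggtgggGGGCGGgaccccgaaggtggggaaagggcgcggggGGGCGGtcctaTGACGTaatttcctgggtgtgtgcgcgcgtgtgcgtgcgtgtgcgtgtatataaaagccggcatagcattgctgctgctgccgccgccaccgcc
Pcsk1, chr13:75089607-75089906, + strand: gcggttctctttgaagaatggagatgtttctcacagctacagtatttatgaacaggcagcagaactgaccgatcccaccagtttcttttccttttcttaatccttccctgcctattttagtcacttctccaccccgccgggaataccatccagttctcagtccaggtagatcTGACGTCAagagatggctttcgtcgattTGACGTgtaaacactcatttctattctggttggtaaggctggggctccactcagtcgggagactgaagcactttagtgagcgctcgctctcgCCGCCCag
Scg2, chr1:79439977-79440276, - strand: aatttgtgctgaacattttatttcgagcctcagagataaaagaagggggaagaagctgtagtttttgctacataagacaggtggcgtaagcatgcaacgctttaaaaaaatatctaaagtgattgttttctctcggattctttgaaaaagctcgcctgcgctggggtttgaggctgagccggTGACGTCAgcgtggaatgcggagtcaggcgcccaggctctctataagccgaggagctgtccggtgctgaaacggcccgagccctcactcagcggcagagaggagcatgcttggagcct
Stxbp5l, chr16:37384909-37385208, - strand: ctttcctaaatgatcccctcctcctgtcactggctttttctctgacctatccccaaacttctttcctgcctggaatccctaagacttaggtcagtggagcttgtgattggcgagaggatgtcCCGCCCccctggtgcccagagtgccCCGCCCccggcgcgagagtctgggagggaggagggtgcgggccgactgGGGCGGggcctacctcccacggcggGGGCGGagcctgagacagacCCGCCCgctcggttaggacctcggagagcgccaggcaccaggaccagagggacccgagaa
The full element TGACGTCA lay 78 to 71 bases before the start of Pcsk1 and 68 to 61 bases before that of Scg2, and the core alone lay 44 to 39 bases before the start of Chga. Among all 32851 promoters of this length 1.79% held the full element and 7.51% the core, against 2 and 3 of the 7 members. GC boxes stood in 5 of the 7 members and in 35.7% of all promoters, and Stxbp5l had 5 of them. The E-box CANNTG, the kind of site that basic helix-loop-helix factors such as Neurod1 bind, was in 5 of the 7 and in 72.3% of all promoters. These matches are descriptions of letters. No binding was measured here.

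Levels are given first by role, with the comparison of the sorts in adult WT mice, which asks whether these genes belong to the mature (mTEChi) or to the remaining (mTEClo) medullary cells. One fit of edgeR's quasi-likelihood test over the 11 mTEC pools gave the log2 fold changes, their standard errors and Benjamini-Hochberg adjusted p-values, and all 10 members passed its filter on low counts. Calls needed an adjusted p below 0.05 together with a change of 2-fold or more. Of all 39971 genes tested, 11.7% were called between adult WT mTEChi and mTEClo. Of the 10 members 3 were called: Insm1 was higher in mTEChi, and Baiap3 and Snap25 were lower. The median log2 fold change of the members (mTEChi minus mTEClo) was -2.04, against 0.30 over all genes tested. Pool ranges that did not overlap put 1 member (Insm1) higher in mTEChi, where 16.1% of all genes were, and 2 (Baiap3, Scg2) lower, where 9.85% were. DESeq2 on the same pools called 6 members, where it called 15.1% of all genes higher and 5.83% lower, and with pool and experimental batch together as the unit 4 were called (Insm1, Baiap3, Snap25 and Stxbp5l) where 34.3% of all genes were.

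The transcription factors differed most in how many cells carried them. Insm1 (ENSMUSG00000068154, chr2:146221921-146225020), a zinc-finger repressor that drives endocrine differentiation, had 161.9, 200.99, 158.4 and 119.4 CPM in the 4 adult WT mTEChi pools and 16.3, 65.2 and 46.5 CPM in the 3 mTEClo pools. Every mTEChi pool lay above every mTEClo pool, the log2 fold change was 1.75 (SE 0.40) and edgeR's adjusted p was 0.0274. The call was lost without mTEChi pool 1 (adjusted p 0.0671 in edgeR), mTEChi pool 3 (0.0578) or mTEClo pool 3 (0.0756), with log2 fold changes of 1.72, 1.79 and 1.81. Insm1 was held by 83.2% of adult WT mTEChi cells (80.5 to 100% by pool) and by 24.6% of mTEClo cells (23 to 28.4%), so that a majority of mature medullary cells carried this gene. Rfx6 (ENSMUSG00000019900, chr10:51677756-51730432), a winged-helix factor needed for pancreatic islet cells, was held by 21 adult WT mTEChi cells (3.39%) and 26 mTEClo cells (7.28%). Its pool values of 2.02, 62.2, 18.6 and 2.70 CPM in mTEChi overlapped with 3.59, 61.4 and 86.7 CPM in mTEClo. The highest of these mTEChi values came from 1 of the 12 cells of pool 2, which held 99.8% of the reads. Neurod1 (ENSMUSG00000034701, chr2:79452521-79456751), a basic helix-loop-helix factor of neurons and endocrine cells, was the rarest member. It reached 5 reads in 11 cells: 5 adult WT mTEChi cells, 4 adult WT mTEClo cells, and 1 each of Aire-KO and newborn mTEChi. Pool 3 of adult WT mTEChi stood at 13.2 CPM, of which 94.8% of the reads were in 1 cell, and the other 3 mTEChi pools were at 1.77, 0.250 and 0.041 CPM.

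The granule genes overlapped between the sorts. Chga (ENSMUSG00000021194, chr12:102554969-102565028) encodes chromogranin A, the main acidic protein of dense-core granules. It had 31.2, 6.63, 67 and 39.2 CPM in adult WT mTEChi and 4.76, 103.6 and 62.1 CPM in mTEClo, with a log2 fold change of -0.78 (SE 0.90) and an adjusted p of 0.565 in edgeR. Many mature cells held a little of it: 40.6% of mTEChi cells (33.3 to 54.9% by pool) against 11.8% of mTEClo cells (2.30 to 31.1%). Scg2 (ENSMUSG00000050711, chr1:79434669-79440120), the granin secretogranin II, was measured at 8.09, 0, 9.37 and 0.124 CPM in mTEChi and at 14.1, 122.6 and 30.8 CPM in mTEClo. No mTEChi value reached an mTEClo value, but the difference was not called (log2 fold change -3.78, SE 1.46, adjusted p 0.111 in edgeR). Pcsk1 (ENSMUSG00000021587, chr13:75089826-75134861), the prohormone convertase PC1/3 that cleaves peptide precursors, had 8.49, 0.125, 10.3 and 29.7 CPM in mTEChi and 3.16, 47 and 32.2 CPM in mTEClo, and these ranges overlapped. It was held by 49 mTEChi cells (7.90%) and 16 mTEClo cells (4.48%).

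Of the 3 exocytosis genes, Snap25 and Baiap3 were called lower in mTEChi and Stxbp5l was not. Snap25 (ENSMUSG00000027273, chr2:136713453-136782428) encodes the membrane SNARE of regulated secretion. Its values were 10.4, 18.0, 8.76 and 6.29 CPM in the mTEChi pools and 8.43, 115.1 and 123.2 CPM in the mTEClo pools. The log2 fold change was -3.06 (SE 0.75, adjusted p 0.0356 in edgeR), and mTEClo pool 1 lay within the mTEChi range. The call was lost without mTEChi pool 1, 3 or 4 or mTEClo pool 2 or 3, with adjusted p between 0.0827 and 0.104 in edgeR and log2 fold changes between -3.08 and -2.65. Without both smaller mTEClo pools, a setting chosen after the data were seen, Snap25 stood at 0.02 and was not called. Baiap3 (ENSMUSG00000047507, chr17:25242659-25256364), a relative of the Munc13 priming proteins that acts in dense-core vesicle release, was at 3.43, 7.63, 5.96 and 3.11 CPM in mTEChi and at 10.5, 42.3 and 86.6 CPM in mTEClo. These ranges did not overlap (log2 fold change -3.36, SE 0.65, adjusted p 0.0163 in edgeR), and leaving out mTEClo pool 3 alone brought the change to -2.57 with an adjusted p of 0.0504. Stxbp5l (ENSMUSG00000022829, chr16:37114942-37384962), a tomosyn that binds syntaxin and restrains fusion, had 26.3, 7.26, 46.9 and 28.3 CPM in mTEChi and 27.4, 294.5 and 162.6 CPM in mTEClo. It just missed the threshold (log2 fold change -2.70, SE 0.75, adjusted p 0.0501 in edgeR) and passed it without mTEClo pool 1 (-3.18, adjusted p 0.0158).

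Car8 (ENSMUSG00000041261, chr4:8143362-8239041) encodes a carbonic anhydrase-related protein without catalytic activity that binds the inositol trisphosphate receptor. It was at 34.1, 1.88, 3.13 and 1.36 CPM in the mTEChi pools and at 21.0, 172.8 and 208.6 CPM in the mTEClo pools, and mTEChi pool 1 exceeded mTEClo pool 1 (log2 fold change -3.86, SE 1.23, adjusted p 0.0701 in edgeR). Per kilobase of exon, the mean over pools in adult WT mTEClo was highest for Car8 at 34.8 CPM per kb, followed by Scg2 at 22.2, Chga at 20.6 and Stxbp5l at 19.0, and Neurod1 was lowest at 0.460. In adult WT mTEChi, Insm1 led at 51.7 CPM per kb before Chga at 13.1, and each other member stood at 5.33 or less. Reads were counted without regard to strand, so reads of overlapping genes cannot be told apart for Neurod1 (Cerkl), Snap25 (Gm14053), Stxbp5l (Gm15665, Gm49567), Car8 (Gm11799, Gm25355) and Baiap3 (Mir3547, Tsr3). Insm1, Rfx6, Chga, Pcsk1 and Scg2 overlap no annotated gene.

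Adult WT mTEClo had the highest group mean for 7 of the 10 members, the exceptions being Insm1 (Aire-KO mTEChi), Neurod1 (adult WT mTEChi) and Chga (newborn mTEClo). Cortical cells carried little of most members. In adult cTEC the values ran from 0 CPM for Neurod1 to 13.3 CPM for Baiap3, which 34 of 77 adult and 45 newborn cTECs held (44.2% and 32.4%). This is a larger share of cells than in any medullary group, where Baiap3 was held by 9.80 to 26.6% of cells. In adult WT mTEClo each member was lowest in pool 1. Between pools 2 and 3 the members went both ways, for example Car8 at 172.8 and 208.6 CPM and Chga at 103.6 and 62.1 CPM. The shares of tuft marker cells and of cells holding many members were also lowest in pool 1. Their part in the sort differences was not tested, but without both smaller pools Insm1 was the single member called (log2 fold change 2.95, adjusted p 0.0137 in edgeR), where 4.3% of all genes were.

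**Figure D1:**
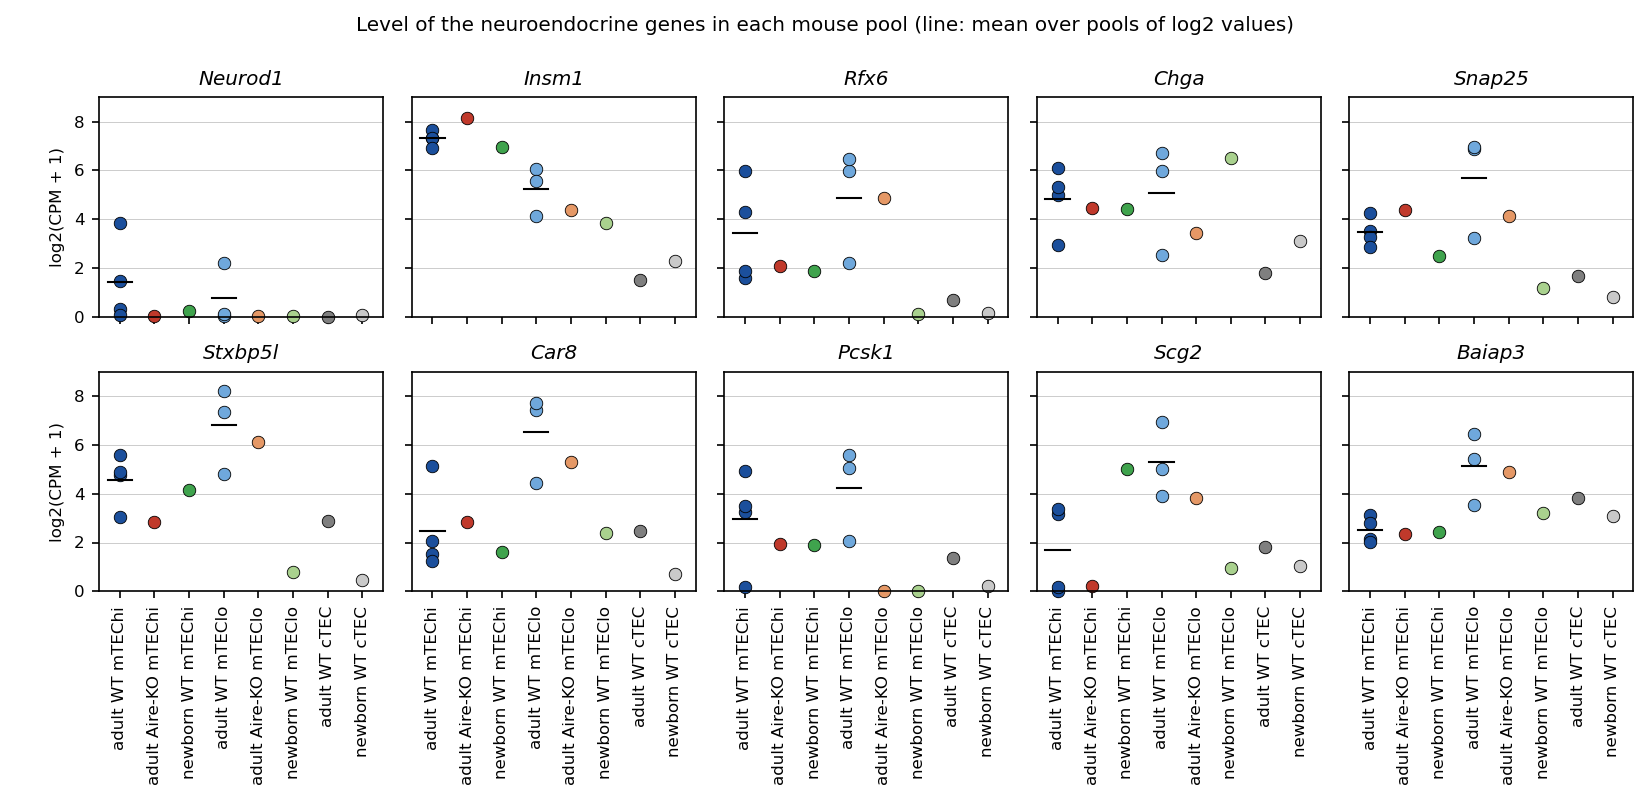
Level of each neuroendocrine gene in the 13 mouse pools, as log2(CPM + 1) on the y axis, by group on the x axis. Each point is a pool and each line the mean of the log2 values of a group with more than 1 pool. Insm1 is highest in the mTEChi groups, while Snap25, Stxbp5l, Car8 and Baiap3 are highest in adult mTEClo with 1 of its 3 pools well below the others.

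Counting the members held by each cell separated a small population from the rest. None of the 10 genes was held by 26.8% of all cells, 30.8% held 1, 23.2% held 2, 11.8% held 3, 4.65% held 4 and 1.06%, or 21 cells, held 5. Beyond that, 5 cells held 6 members, 14 held 7, 9 held 8, 7 held 9 and 1 held all 10. Cells with 6 or more, a limit chosen after this distribution was seen, numbered 36. Most of these, 30 of 36, were adult mTEClo cells: 25 in WT (7.00% of the sort) and 5 in Aire-KO (3.25%). The others were 4 of 620 adult WT mTEChi cells, 1 newborn mTEChi cell (0.585%) and 1 of 77 adult cTECs. There were 0 among the Aire-KO mTEChi cells, which allows a share of up to 0.888%, 0 among newborn mTEClo cells (up to 2.42%) and 0 among newborn cTECs (up to 2.16%). Limits and intervals of shares and of ratios cover counting error only, not the spread between pools.

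Cells with few and with many members were spread differently over the sorts. Of the cells with 3 to 5 members, about 350, 93.9% were mTEChi, whereas 30 of the 36 with 6 or more were mTEClo. The share of cells with 3 or more members was 27.7, 50, 36.6 and 28% in the adult WT mTEChi pools (mean 35.6% ± 10.5, SD, n = 4) and 3.23, 20.3 and 21.2% in the mTEClo pools (14.9% ± 10.1, SD, n = 3). At this limit of 5 reads all mTEChi pools were above all mTEClo pools. With 10 reads they were not: mTEClo pool 3, at 19.7%, was above mTEChi pools 1 and 4, at 18.2 and 18.3%. With 6 or more members the order turned: 0.676, 0, 1.22 and 0% in mTEChi (0.474% ± 0.590, SD, n = 4) and 1.38, 16.2 and 15.2% in mTEClo (10.9% ± 8.27, SD, n = 3). No p is given for such a count over chosen genes. Depth moved with these classes less than the members did: the median was 800535 reads in cells with 6 or more members, 796919 in those with 3 to 5 and 665656 in those with 0 to 2. When every cell was thinned to 200000 reads, the mean share with 6 or more members in adult WT mTEClo was 10.9% again. The share with 3 or more then averaged 11.5% in adult WT mTEChi (8.33 to 14.6% by pool) and 13% in mTEClo (1.84, 17.6 and 19.7%), so the order of the sorts at 3 or more members changed with the read limit and the depth.

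**Figure D2:**
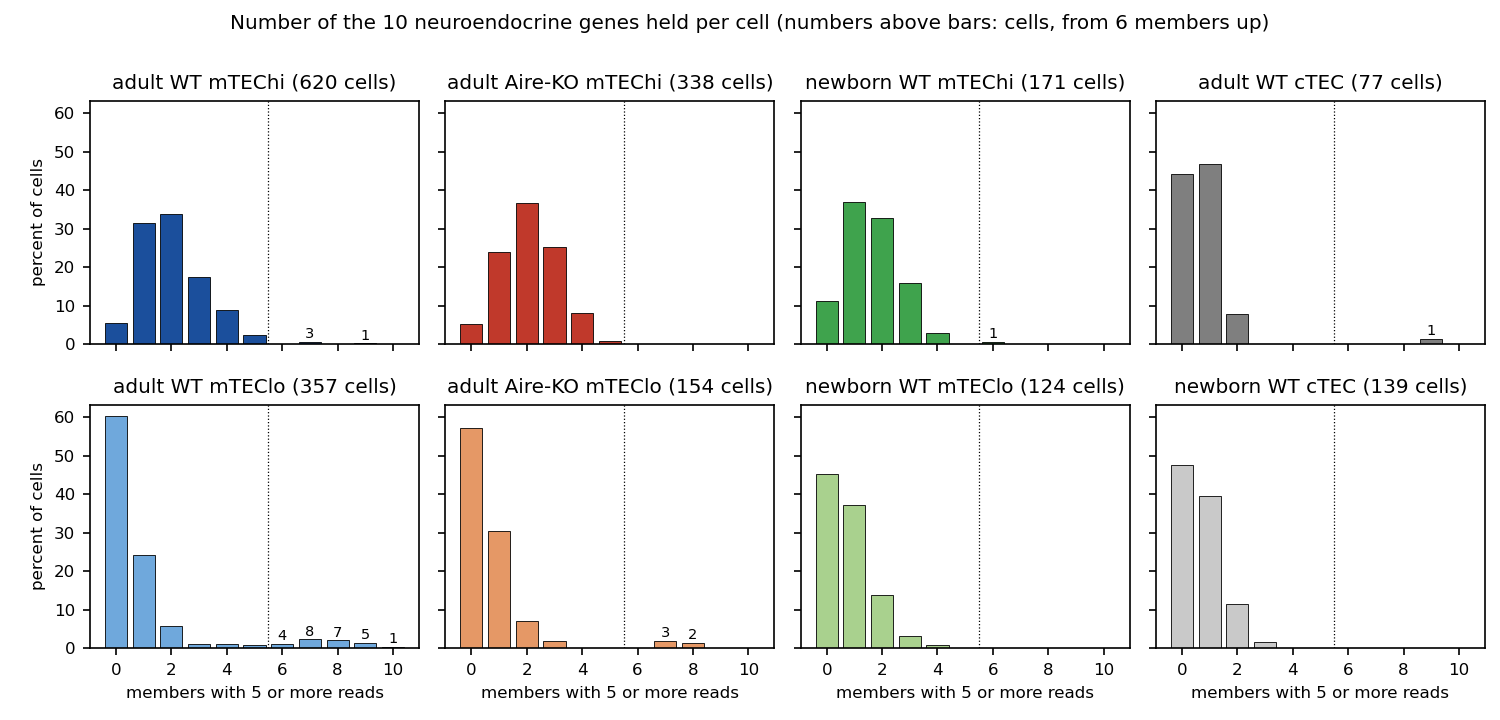
Percent of cells (y axis) holding 0 to 10 of the neuroendocrine genes at 5 or more reads (x axis) in each of the 8 groups. Numbers above bars from 6 members up count cells. A second mode at 7 to 9 members appears in adult WT mTEClo. Aire-KO mTEClo has 3 cells at 7 members and 2 at 8, and adult WT mTEChi has 3 at 7 and 1 at 9. Newborn mTEChi has 1 cell at 6, and Aire-KO mTEChi has none beyond 5.

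Within the 36 cells the members were not held evenly. Insm1 and Snap25 were held by all 36, Stxbp5l by 35, Chga by 34, Car8 by 32, Baiap3 by 30, Rfx6 by 29, Pcsk1 by 19, Scg2 by 18 and Neurod1 by 4. The same cells held most of the reads of several members. Adult WT mTEClo cells with 6 or more members were 7.00% of the sort and held 98.5% of its Rfx6 reads, 98.7% of Pcsk1, 96.6% of Scg2, 94.0% of Chga, 93.7% of Stxbp5l, 91.6% of Baiap3, 91.5% of Snap25, 86.2% of Car8 and 70.5% of Insm1. Since the cells were chosen by these genes, these shares describe how concentrated the reads are. They also show what the pool levels in adult WT mTEClo rest on, namely few cells with much RNA of these genes rather than many cells with a little.

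The amounts per cell were large. Over the 36 cells the median was 996.98 CPM for Stxbp5l, 992.3 CPM for Car8, 519.8 CPM for Snap25, 350 CPM for Rfx6, 256.2 CPM for Insm1, 211.4 CPM for Baiap3 and 197.9 CPM for Chga. In adult WT mTEChi cells outside this population, those that held a member held less of it: the median was 31.6 CPM for Stxbp5l, 30 CPM for Snap25, 25 CPM for Chga and 27.5 CPM for Car8 (62 cells). Insm1 was closer, with a median of 123.6 CPM. An example at the upper end is the cell holding all 10 members, from adult WT mTEClo pool 3, with 94.7 CPM of Neurod1, 181.1 of Insm1, 656.7 of Rfx6, 300.96 of Chga, 163.5 of Snap25, 569.4 of Stxbp5l, 717.1 of Car8, 83.6 of Pcsk1, 735.7 of Scg2 and 852.7 of Baiap3 over 1076559 reads. At the lower end, a cell of the same pool held 6 members with 6 reads of Insm1, 12 of Snap25, 20 of Stxbp5l, 38 of Neurod1 and none of Rfx6, Car8, Pcsk1 and Scg2. The median of Aire was 21 reads, or 30.8 CPM, over the 36 cells, against 26.3 CPM in all other cells. In adult WT mTEClo it was 34.4 against 12.5 CPM, and 21 of the 25 cells held Aire against 57.2% of the others. In adult WT mTEChi the 4 cells had a median of 580.9 CPM against 1052.4 CPM. The newborn mTEChi cell had 43.9 CPM against 1534.4 CPM, and all 5 cells of Aire-KO mTEClo had 0 reads.

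**Figure D3:**
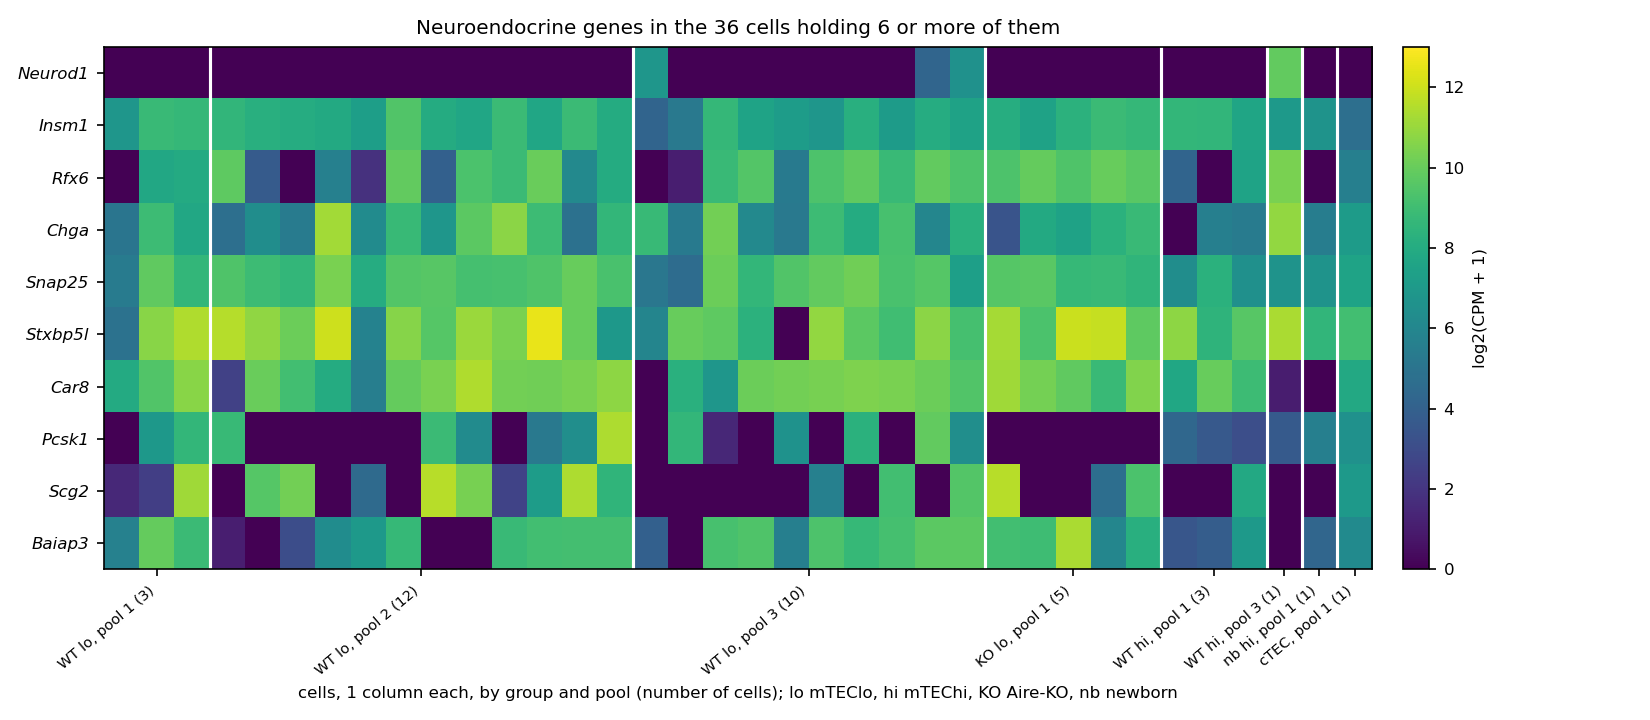
Level of the neuroendocrine genes in each of the 36 cells that held 6 or more of them, as log2(CPM + 1) in color, with genes in rows and cells in columns by group and pool (number of cells in brackets). Insm1 and Snap25 are present in every column, Neurod1 in 4, and Pcsk1 is absent from the 5 Aire-KO mTEClo cells.

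The mTEChi cells that held 3 to 5 members were of another composition. In adult WT mTEChi there were about 180 such cells, of which 96.1% held Insm1, 75.3% Chga, 46.1% Snap25, 46.1% Stxbp5l, 29.8% Baiap3 and 21.3% Car8, but 7.30% held Rfx6 and 1.12% Neurod1. In Aire-KO mTEChi about 120 such cells were found, of which 99.1% held Insm1, 87.8% Chga, 60% Snap25, 14.8% Rfx6 and 13.9% Stxbp5l, and none Scg2. Rfx6 was thus held by a small share of these cells and by 29 of the 36 cells with 6 or more members. The rule for the 36 cells uses the same reads, so this is a description.

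Co-expression was also described pair by pair, as Pearson's r of log2(CPM + 1) over the cells of a group. Cells of a pool share their source and in part their experimental batch, so no p is given. Over the 45 pairs the median r was 0.55 in adult WT mTEClo (360 cells), 0.46 in Aire-KO mTEClo (150 cells) and 0.06 in adult WT mTEChi (620 cells). It was -0.01 in Aire-KO mTEChi, 0.04 in newborn mTEChi and -0.02 in newborn mTEClo. In adult WT mTEClo all 36 pairs without Neurod1 exceeded 0.3, and none of the 9 pairs with it did. In Aire-KO mTEClo 27 pairs exceeded 0.3, none of them with Pcsk1 or Neurod1. No pair did in adult WT mTEChi. The median was 0.39, 0.62 and 0.60 in mTEClo pools 1, 2 and 3. Among adult WT mTEClo cells holding 5 or fewer members it was 0.13, and 6 pairs exceeded 0.3. In adult WT cTEC, where 1 of 77 cells held 6 or more members, it was 0.47, and 26 of 36 pairs exceeded 0.3. In newborn cTEC it was -0.03, and in Aire-KO mTEChi 1 pair exceeded 0.3, at r = 0.92. High r over a group can thus rest on few cells, and these cells were set apart by the same reads.

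Chga and Snap25 were the closest pair, with r = 0.86 in adult WT mTEClo. Of the 42 cells there with Chga, 30 held Snap25 (71.4%), against 1.27% of the cells without Chga. Snap25 with Stxbp5l (r = 0.83) and Chga with Stxbp5l (r = 0.82) came next. In Aire-KO mTEClo the closest pair was Rfx6 with Stxbp5l (r = 0.87), and all 5 cells with Stxbp5l held Rfx6. The pairs of adult WT mTEChi were loose: Stxbp5l with Car8 led at r = 0.28, where 29 of the Stxbp5l cells held Car8 (22%) against 7.38% of the others. Insm1 and Chga, the most frequent members there, were unrelated in level (r = -0.02), and 41.5% of Insm1 cells held Chga against 36.5% of the cells without Insm1.

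**Figure D4:**
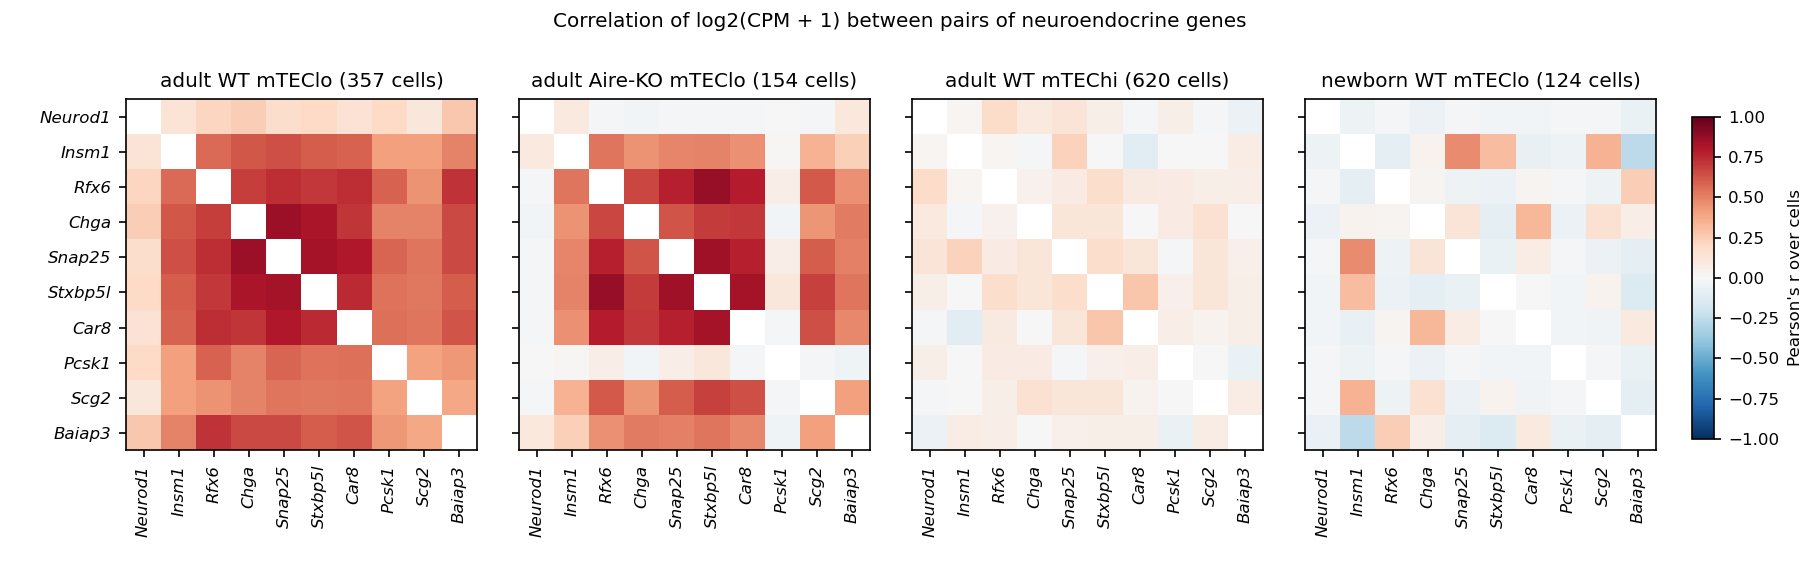
Pearson's r between each pair of neuroendocrine genes over single cells (color, red for positive and blue for negative), in adult WT mTEClo, Aire-KO mTEClo, adult WT mTEChi and newborn WT mTEClo. Most pairs without Neurod1 are above 0.3 in adult WT mTEClo, the pattern recurs in Aire-KO mTEClo except for Pcsk1, and pairs in adult WT mTEChi lie below 0.3.

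The comparison of newborn with adult WT mice asks whether these genes are already expressed on the first day of life. In mTEClo, 9 of the 10 members were lower in the newborn pool than in each of the 3 adult pools, all but Chga. Over all genes tested 19.1% lay below and 34% above in this way, and 0 members lay above. Stxbp5l was at 0.724 CPM in newborn mTEClo against 27.4, 294.5 and 162.6 CPM in adults, Snap25 at 1.24 against 8.43, 115.1 and 123.2 CPM, and Rfx6 at 0.075 against 3.59, 61.4 and 86.7 CPM. Few newborn mTEClo cells held them at all: 3 held Stxbp5l, 5 held Snap25 and none held Rfx6, Pcsk1 or Neurod1, which allows up to 2.42% of cells for each of these. The number of cells with 6 or more members was 0 there, but adult mTEClo pool 1 had 3 (1.38%), below the limit of 2.42% that a count of 0 allows. The makeup of the sort differed too: 6 cTEC markers summed to 2457 CPM in newborn mTEClo against 467.5, 209.5 and 132.6 CPM in the adult pools, and tuft markers to 389.7 against 597.9, 5349 and 5870 CPM. The part of these cells in the newborn difference was not tested.

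None of these differences passed the test with the mouse pool as replicate. In edgeR 0 of the 10 members and 0% of the 39971 genes were called between newborn and adult WT mTEClo, where 5.62% of genes stood higher and 4.32% lower before adjustment, at p below 0.05. With 1 newborn pool, its spread was taken from the pools of other groups. The log2 fold change (newborn minus adult) was -7.82 for Stxbp5l (SE 1.79, adjusted p 0.206 in edgeR), -6.07 for Snap25 (SE 1.61, adjusted p 0.273) and -9.39 for Rfx6 (SE 3.32, adjusted p 0.411). Pcsk1 had 1 read in the newborn pool, so that the adult to newborn ratio of the summed reads, 1708.8, has a counting interval from 306.5 to 67508.5, and by adult pool the ratio was 252.6, 3759.5 and 2578.9. In adult pools 1, 2 and 3, 1 cell held 66.2, 69.3 and 48.6% of the Pcsk1 reads. Adult pool 1 held Pcsk1 in 1.84% of cells, below the 2.42% that a count of 0 allows in newborn mTEClo. Car8 was at 4.23 CPM in newborn mTEClo with a log2 fold change of -5.00 (SE 2.41), Scg2 at 0.949 CPM with -5.90 (SE 3.02), Baiap3 at 8.23 CPM with -2.52 (SE 1.10) and Insm1 at 13.5 CPM with -1.70 (SE 0.63), each with an adjusted p of 0.436 or more in edgeR. Neurod1 had 1 read in newborn mTEClo, against 0.018, 0.083 and 3.66 CPM in the adult pools. Its adult to newborn ratio was 65.3 with a counting interval from 11.6 to 2594, but 96.1% of the adult reads were in pool 3, and without that pool the ratio was 3.25 (0.417 to 146.4). DESeq2 on the same pools called 4 members lower in newborn mTEClo (Pcsk1, Rfx6, Snap25 and Stxbp5l) among 1.65% of all genes called higher and 1.94% lower. With pool and experimental batch together as the unit, 5 were called (these 4 and Car8) where 14% of all genes were, but batches of a pool may share mice and those p-values are then too small. Leaving out adult WT mTEClo pool 1 gave 3 calls in edgeR, where 1.34% of all genes were called: Insm1 (-2.06, adjusted p 0.0498), Snap25 (-6.60, adjusted p 0.0203) and Stxbp5l (-8.31, adjusted p 0.0370).

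Chga was the exception in newborn mTEClo. It stood at 90.6 CPM, within the adult range of 4.76 to 103.6 CPM, and was held by 31 cells (25%). Of the 7251 reads, 3220 and 3042 were in 2 cells, and the next cell had 4.65%. These 31 cells came from all 5 experimental batches, with 1 to 18 per batch. Of the 31, 14 held Chga alone, 12 held 1 other member, 4 held 2 others and 1 held 3 others. Baiap3 was held by 10 of them, Insm1 by 5, Car8 by 5, Snap25 by 2, Scg2 by 1, and Rfx6, Stxbp5l, Pcsk1 and Neurod1 by none.

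In mTEChi the newborn pool resembled adults more closely. Scg2 was above all 4 adult pools, at 31.3 CPM against 8.09, 0, 9.37 and 0.124 CPM, and was held by 12 cells (7.02%), with 37.2% of its 3034 reads in 1 of them. Snap25 was below all 4, at 4.68 CPM against 6.29 to 18.0 CPM. That makes 1 member above and 1 below, where 20.1% of all genes lay above and 12.3% below. Insm1 was at 124.1 CPM, within the adult range, and 74.9% of cells held it. In edgeR 0 members and 0% of all genes were called between newborn and adult mTEChi (before adjustment, 1.51% of genes stood higher and 0.503% lower at p below 0.05), DESeq2 called 0 members among 12 genes higher and 22 lower, and with pool and batch as the unit 0 members were called where 1.25% of genes were. The Scg2 difference (log2 fold change 2.84, SE 1.75) had an adjusted p of 1.0 in edgeR.

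Whether the age effect differs between the sorts was tested directly. For 9 of the 10 members the log2 fold change with age was more negative in mTEClo than in mTEChi, and the difference was 7.15 for Stxbp5l (SE 1.87) and 4.90 for Snap25 (SE 1.69), but edgeR called 0 members and 0% of genes (2.10% higher and 1.71% lower before adjustment). DESeq2 called 1 member, Stxbp5l, where it called 0.213% of genes higher and 0.267% lower, and pool and batch units gave 2, Stxbp5l and Pcsk1, where 4.37% of genes were called. The 2 newborn sorts and the adult pools enter the same fit.

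Aire-KO was compared with WT in each adult sort, to ask whether these genes depend on Aire. In mTEChi, where Aire is expressed, Insm1 stood at 283.6 CPM in Aire-KO against 119.4 to 200.99 CPM in the 4 WT pools, and Snap25 at 19.7 CPM against 6.29 to 18.0 CPM. Stxbp5l stood at 6.08 CPM against 7.26, 26.3, 28.3 and 46.9 CPM, and Neurod1 at 0.024 CPM against 0.041 to 13.2 CPM. So 2 members lay above all WT pools, where 16.5% of all genes did, and 2 below, where 17.5% did. The share of cells pointed the same way for Stxbp5l: 18 Aire-KO cells held it (5.33%) against 16.7 to 23.2% in the WT pools. Insm1 was held by 92.6% of cells, and Scg2 by 1 cell (0.296%) against 20 of 620 in WT.

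These differences between genotypes did not pass the test either. In edgeR 0 members and 0% of genes were called in mTEChi (before adjustment, 1.18% of genes stood higher and 3.19% lower at p below 0.05). The log2 fold change (Aire-KO minus WT) was 0.95 for Insm1 (SE 0.52, adjusted p 0.925 in edgeR), 0.99 for Snap25 (SE 1.00, adjusted p 0.968) and -2.05 for Stxbp5l (SE 1.25, adjusted p 0.925). DESeq2 called 0 members where it called 0.0992% of genes higher and 1.55% lower, and pool and batch units gave 0 members where 4.63% of genes were called. Chga, at 20.7 CPM, and the 5 other members lay within the WT ranges. No Aire-KO mTEChi cell held 6 or more members, while the WT share by pool was 0 to 1.22%, so a difference was not detectable at this number of cells.

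Aire-KO mTEClo kept cells with many members. There were 5 (3.25%, exact binomial interval 1.06 to 7.41%), 4 of them in 1 experimental batch and 1 in the other, and this share lay between that of WT pool 1 (1.38%) and those of WT pools 2 and 3 (16.2 and 15.2%). Tuft marker cells, at 14.9% in Aire-KO mTEClo, also lay between WT pool 1 and the other 2, and the part of the makeup of the sort in these levels was not tested. Rfx6 was at 28.5 CPM, Stxbp5l at 68.2 CPM, Car8 at 38.5 CPM, Baiap3 at 28.9 CPM and Insm1 at 19.9 CPM, each within the range of the 3 WT pools. The 5 cells held much of them: 91.4% of the Rfx6 reads, 99.7% of Stxbp5l and 99.4% of Scg2.

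Pcsk1 was absent from the Aire-KO mTEClo cells that held the other genes. The pool had 1 read of it, against 3.16, 47 and 32.2 CPM in WT, a WT to Aire-KO ratio of the summed reads of 1957.8 with a counting interval from 351.2 to 77344. By WT pool the ratio was 289.4, 4307 and 2955. In WT pools 1, 2 and 3, 1 cell held 66.2, 69.3 and 48.6% of the Pcsk1 reads, which the counting interval does not cover. By share of cells, WT pool 1 stood at 1.84%, below the 1.95% that a count of 0 allows in Aire-KO mTEClo. Of the 25 WT mTEClo cells with 6 or more members 13 held Pcsk1, and 0 of the 5 Aire-KO cells did. Pcsk1, Neurod1 and Scg2 lay below all 3 WT pools, where 13.6% of all genes did, and 0 members lay above, where 25.9% did. Neurod1 had 1 read in Aire-KO mTEClo, with a WT to Aire-KO ratio of 74.8 (counting interval 13.3 to 2972). Of the WT reads 96.1% were in pool 3, and without it the ratio was 3.72 (0.478 to 167.8). In edgeR 0 members and 0% of genes were called (2.14% higher and 1.41% lower before adjustment), Pcsk1 having an adjusted p of 1.0, while DESeq2 called Pcsk1 alone of the members (adjusted p 8.89e-04) where it called 0.174% of genes higher and 0.382% lower. Pool and batch units gave 0 members where 0.0704% of genes were called. In Aire-KO mTEChi, 14 cells held Pcsk1 (4.14%), so the gene was detected without Aire in that sort. The difference between the Aire-KO effects in both sorts was called for 0 members and 0% of genes in edgeR (1.23% higher and 2.2% lower before adjustment), and DESeq2 called 0 members, with 0.134% of genes higher and 0.242% lower. The WT pools are shared with the other comparisons.

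Without both smaller WT mTEClo pools the Aire-KO fold change turned positive for 7 members in mTEClo, for example to 2.86 for Rfx6, 1.19 for Stxbp5l and 1.33 for Baiap3. The direction of these members in mTEClo therefore rested on which WT pools were used. The WT mTEClo pool left in was 8 weeks old, and the Aire-KO pool was 5 weeks old. Pcsk1, Neurod1 and Scg2 did not turn.

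Other genes of the pathway were taken from fixed lists. Between adult WT mTEChi and mTEClo, edgeR called 4 of 18 granule and prohormone processing genes higher in mTEChi and 1 lower, 1 of 18 exocytosis genes higher and 1 lower, 3 of 18 endocrine transcription factors higher and 2 lower, and 8 of 20 peptide hormones higher and none lower, where 11.7% of all genes were called. The granule genes with the highest levels went both ways: Cadps, a priming factor of dense-core vesicles, was higher in mTEChi (log2 fold change 1.36, SE 0.26, adjusted p 0.0167 in edgeR), as was the vesicular monoamine transporter gene Slc18a1 (2.36, SE 0.58), while Ptprn2, a granule membrane protein, was lower (-2.60, SE 0.72, adjusted p 0.0487). Among the hormones, Calca, which encodes calcitonin (3.49, SE 0.71, adjusted p 0.0198 in edgeR), and Nts, which encodes neurotensin (7.50, SE 0.84, adjusted p 0.00301), were higher in mTEChi. With mouse pools as replicates, edgeR called no gene of these 4 lists between Aire-KO and WT or between newborn and adult WT, in either sort. With pool and experimental batch as the unit, 11 of the 20 peptide hormones were called lower in Aire-KO mTEChi (4.63% of all genes were called), and in newborn mTEClo 7 of 18 granule genes, 6 of 18 exocytosis genes and 5 of 18 transcription factors were called lower (14% of all genes were called).

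Cell by cell, the granule list went with the members. In adult mTEClo, WT and Aire-KO, the 30 cells with 6 or more members were set beside the others, about 480. All 18 granule genes were held by a larger share of the 30 cells, and so were 17 of 18 exocytosis genes. Ptprn2 was held by 30 of 30 cells against 23.7% of the others (1049.1 against 60.4 CPM), Cadps by 30 of 30 against 49.9%, Slc18a1 by 22 of 30 against 10.8%, and the synaptotagmin gene Syt1 by 30 of 30 against 72.3%. Chgb (25 of 30 against 2.29%), which encodes chromogranin B, and Syt7 (28 of 30 against 6.65%) had larger contrasts and are named after their values were seen. These lists were chosen with results known, and cells of a pool share their source, so no test is given. No share over all genes was set beside these counts. The 30 cells made up 16.2 and 15.2% of adult WT mTEClo pools 2 and 3. They were 1.38% of the remaining WT pool and 3.25% of Aire-KO mTEClo. Their median depth was 900024 reads against 774618 in pool 2 and 843632 against 684068 in pool 3. In Aire-KO mTEClo it was 527506 against 534732. The part of pool makeup and depth in these shares, and in those of the lists below, was not tested.

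Transcription factors and hormones followed less far. Of the 18 endocrine transcription factors 11 were held by a larger share of the 30 cells and 6 by none of them. Rfx3, a relative of Rfx6, was held by 30 of 30 against 74.8%, and St18 by 27 of 30 against 22.9%, while Isl1 was held by 21 of 30 against 77.8%. Myt1, of the same zinc-finger family as St18 and named after its values were seen, was held by 27 of 30 against 1.66%. Of the 20 peptide hormones 8 were held by none of the 30 cells, and none was held by a majority. Nts was among the 8, as was Grp, named after its values were seen, which 31% of the other cells held. Calca was held by 4 of 30 (2.49% of the others), Iapp by 7 of 30 (4.57%) and Sct by 7 of 30 (15.8%). By count, 13 of the 18 granule genes and 13 of the 18 exocytosis genes were each held by at least 15 of the 30 cells, and 0 of the 20 hormones were.

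Summed levels of tuft and immature mTEC markers were lower in the 30 cells, and those of enterocyte and hepatocyte, neuron and parathyroid markers were higher. The 10 tuft markers summed to 169.8 CPM in them against 2790 CPM in the others, with Pou2f3, the defining transcription factor of tuft cells, in 3 of 30 against 40.1%. Of the 10, 2 were more frequent in the 30 cells, Avil (18 of 30 against 40.7%) and Trpm5 (14 of 30 against 37.4%), the latter an ion channel of taste transduction. In addition, 6 of the 30 cells held 5 or more tuft markers, 5 of them in WT pool 2 and 1 in pool 3. In the other direction, about 190 cells of all groups held 5 or more tuft markers. Of these 57 held Insm1 (30.5%), 42 Chga (22.5%), 35 Stxbp5l (18.7%) and 6 Rfx6 (3.21%). In adult WT mTEClo, where most of them were found, 24.6, 11.8, 12.3 and 7.28% of all cells held these genes. In adult WT mTEChi 83.2, 40.6, 21.3 and 3.39% did. Markers of immature mTECs summed to 589.5 CPM against 2407 CPM, with Itgb4 in 5 of 30 against 97.5% and Krt14 in 10 of 30 against 76.3%. The 10 enterocyte and hepatocyte markers summed to 401.7 against 114.01 CPM, and 8 of them were more frequent, led by Cdx1 (28 of 30 against 24.3%) and Lypd8 (20 of 30 against 9.15%). The 10 neuron markers summed to 246.9 against 21.3 CPM and 6 were more frequent, but only Elavl4 reached a majority of the cells (28 of 30 against 1.66%). The 4 parathyroid markers summed to 425.95 against 95.5 CPM, but only 1 of them was more frequent in the 30 cells. Casr, the calcium-sensing receptor, was held by 29 of 30 (45.9% of the others), and 2 of the 4, Gcm2 and Pth, by none.

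The genes whose pattern over all cells was most like that of the set were found by Pearson's r with the mean log2(CPM + 1) of the 10 members, among 29928 genes with 5 or more reads in 10 or more cells. After 7 predicted genes and pseudogenes were passed over, the order was Cpn1 (r = 0.56), Speer4c (0.56), Fam183b (0.55), Elavl4 (0.52), Kcnh6 (0.52), Rimbp2 (0.52), Ffar2 (0.51), Gdap1l1 (0.50), Spock3 (0.48) and Cd177 (0.48). Speer4c belongs to a multigene family among whose copies reads may be split, so its value is uncertain. Cpn1, a carboxypeptidase N subunit gene, was held by 35 of the 36 cells with 6 or more members and by 3.34% of all others, and Elavl4, which encodes a neuronal RNA-binding protein, by 32 of 36 and 4.01%. Rimbp2, an active zone scaffold gene, was held by 32 of 36 and 5.92%, and Ffar2, a receptor for short-chain fatty acids, by 28 of 36 and 1.9%. Kcnh6, Gdap1l1 and Spock3 were held by 46.5 to 61.7% of the other cells as well, so their likeness to the set lay in their levels.

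Partners of the single members differed. Insm1 went with Dleu7 (r = 0.74) and Hdc (r = 0.71), the histidine decarboxylase gene, which were held by 49.6% and 67.4% of the cells outside the 36. Rfx6 went with Fam183b (0.56) and Speer4c (0.49), Chga with Gdap1l1 (0.43) and Kcnh6 (0.42), and Stxbp5l with Car8 (0.49). Neurod1 went with Cerkl (0.37), which overlaps it in the genome, and with Nkx2-2 (0.24), an islet transcription factor held by 11 cells. The partners of Pcsk1 were Ffar2 (0.26) and Rimbp2 (0.25), those of Scg2 were Speer4c (0.36) and Stxbp5l (0.32), those of Baiap3 were Elavl4 (0.28) and Speer4c (0.27), and those of Snap25 were Stxbp5l and Cpn1 (both 0.37). Car8 had Stxbp5l and Speer4c (0.47). The partners of Insm1 and Chga were held by many cells outside the 36, and those of most other members were rarely held there. Partners were picked by their r with the members, and the 36 cells by the reads of the members. The contrast largely follows from that choice and is a description. The same holds for the genes most like the whole set.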

How the data were processed

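RamDA-seq libraries of single sorted cells were analysed from the gene count table deposited by the authors: deduplicated reads per Ensembl gene and cell, counted without strand. Per the submitters' processing notes, reads were handled with fastp 0.20.0, STAR 2.7.3a, SAMtools 1.9, Picard 2.21.1 and HTSeq 0.11.2 on mm10. The authors' second table, of length-normalized values, was not used. Cells of a group with the same age and sex were summed into 13 pools, and cells sequenced in 2 runs were counted once. Counts were tested with edgeR 4.0.16 (limma 3.58.1, R 4.3.3) by TMM, filterByExpr and the quasi-likelihood test over the 11 mTEC pools (5 residual degrees of freedom), with Benjamini-Hochberg adjustment over 39971 genes. Groups with 1 pool were assumed to vary like the others. Alternatives were DESeq2 1.42.0 with its size factors, no count filter, 31 units of pool and batch (25 residual degrees of freedom), and each WT pool left out. Steps were tested on simulated data. Cells were sorted 1 per well, and no doublet caller was run. Other values came from Python 3.11.15, numpy 2.4.6, scipy 1.17.1 and pandas 2.3.3.

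The members and lists were chosen with earlier results of these data known. Named genes were the 10 members, Aire, up to 4 genes per list with the highest CPM in cells holding 3 or more members, the 10 annotated genes most correlated with the members' mean, and 2 partners per member. The limit of 6 members, its read limits and the joint omission of both smaller adult WT mTEClo pools were added after the data were seen. One of the genes that this rule gives is not reported here.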

Additional observations from a re-analysis of the deposited data

Results flagged for a closer look

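Levels and shares in the 4 adult WT mTEChi pools, 22 sets of values, were searched for a pool far from the others, by the gap to the nearest pool as a share of the range with a limit of 0.829 for 4 pools, and chance alone picks about 1 in 20. Neurod1 in adult WT mTEChi pool 3 stood apart at 13.2 CPM and in 3.66% of cells, with 94.8% of its reads in 1 cell. Car8 in adult WT mTEChi pool 1 stood apart at 34.1 CPM, against 3.13 CPM or less in the other 3 pools. Insm1 was held by 100% of the cells of adult WT mTEChi pool 2, which has 12 cells, against 80.5 to 83.3% elsewhere. Scg2 differed in sign between sorts in the comparison of newborn with adult WT mice, with a log2 fold change of 2.84 in mTEChi and -5.90 in mTEClo, where the newborn pool lay above every adult pool in mTEChi and below every adult pool in mTEClo. The difference of 8.75 (SE 3.67) had an adjusted p of 0.9999 in edgeR.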

How the results depend on the processing

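Of 840 fold changes recomputed under 12 other settings, 29 turned in sign, 10 lost a call and 22 gained one. No paired analysis was possible because the numbers in the labels only number cells and the adult groups share no batch. Members called: Aire-KO mTEClo 1 in DESeq2; newborn mTEClo 4 in DESeq2, 5 with pool and batch as the unit and 0 to 3 with a pool left out; adult WT mTEChi against mTEClo 6 in DESeq2, 0 to 4 with a pool left out and 1 without both smaller mTEClo pools; difference of the newborn effects 1 in DESeq2 and 2 with pool and batch. Without both smaller mTEClo pools the Aire-KO change in mTEClo became 1.33 for Baiap3, 0.75 for Car8, 0.92 for Chga, 0.16 for Insm1, 2.86 for Rfx6, 0.83 for Snap25 and 1.19 for Stxbp5l, the change between sorts 2.59 for Chga, 1.63 for Pcsk1, 2.214 for Rfx6 and 0.017 for Snap25, the difference of Aire-KO effects -1.48 for Baiap3, -1.32 for Car8 and -1.60 for Chga, and that of newborn effects -3.80 for Neurod1. With pool and batch, Baiap3 became 0.33 in Aire-KO mTEChi and 0.33 in newborn mTEChi, and Car8 -0.65 in the difference of Aire-KO effects. With a pool left out, values ran from -0.31 to 0.20 for Baiap3 and -0.94 to 1.82 for Car8 in Aire-KO mTEChi, -1.07 to 0.18 for Baiap3 in Aire-KO mTEClo, -0.33 to 0.052 for Baiap3 in newborn mTEChi, -0.91 to 6.11 for Neurod1 between sorts, -0.33 to 0.92 for Baiap3 and -5.13 to 2.06 for Neurod1 in the difference of Aire-KO effects, and -2.57 to 4.47 for Neurod1 in that of newborn effects. The share of cells with 3 or more members at 1 read, 10 reads and after thinning was 68.6, 21.8 and 11.5% in adult WT mTEChi, 51.8, 26.3 and 12.1% in Aire-KO mTEChi, 49.7, 9.94 and 7.02% in newborn mTEChi and 33.8, 0 and 0% in newborn cTEC. At 1 read it was 45.3% in adult WT mTEClo, 14.3% in Aire-KO mTEClo and 25.8% in newborn mTEClo. With 6 or more members it was 6.59% in adult WT mTEChi at 1 read and 0% in newborn mTEChi at 10 reads. The cause of these shifts was not tested. Genes called between adult WT sorts were 4663 in edgeR, 7327 higher and 2821 lower in DESeq2, and 12673 with pool and batch. With 1 pool per newborn and Aire-KO group, changes of rarely held genes rest on few cells.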

Other observations

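Other marker lists were read in the same 30 adult mTEClo cells with 6 or more neuroendocrine genes. Ciliated cell markers were held more often for 6 of 8 genes but summed to 67.4 CPM against 172.004 CPM in the others. Microfold markers summed to 613.1 against 1301.6 CPM, keratinocyte markers to 47.7 against 296.2 CPM, cTEC markers to 98.2 against 468.4 CPM and muscle markers to 5.23 against 24.7 CPM. Lists of other lineages came to 90.2 against 65.7 CPM for 9 thymocyte and blood markers, 6.53 against 80 CPM for fibroblast and endothelial markers, and 15.4 against 9.70 CPM for glial markers. Cycling markers summed to 1.95 against 22.2 CPM.

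Peptide hormones of the fixed list had a median log2 fold change of -4.05 in Aire-KO against WT mTEChi and -3.40 in mTEClo, with 2 of 20 positive in each sort, while edgeR over mouse pools called none of them. With pool and experimental batch as the unit, 11 were called lower in mTEChi and none in mTEClo. The granule genes had medians of -0.46 and -1.77 in the same comparisons, and all genes tested of -0.16 and 0.00. The single adult cTEC with 9 members carried 527.6 CPM of Stxbp5l, 227.8 CPM of Car8 and 187.2 CPM of Snap25.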
